A study of Mus musculus with 2 samples.

Results

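Replication-dependent histone genes encode the H1, H2A, H2B, H3 and H4 proteins that package newly made DNA. The set described here holds 67 of the 55536 genes in the tables. They were chosen by symbol, beginning with Hist1h, Hist2h, Hist3h or Hist4h, and by having at least 1 transcript annotated as protein-coding. The rule itself used no measured value, though members were chosen with earlier results of these data known. By gene name, 54 lie in the Hist1 cluster on chromosome 13, 10 in Hist2 on chromosome 3, 2 in Hist3 on chromosome 11 and 1 is Hist4h4 on chromosome 6. By family, 6 encode H1, 18 H2A, 18 H2B, 12 H3 and 13 H4.

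These genes are transcribed mainly during S phase, from histone locus bodies in the nucleus, under the coactivator NPAT. Their messages usually carry no poly(A) tail. A conserved stem-loop after the stop codon is bound by the stem-loop binding protein SLBP, the U7 snRNP directs cleavage downstream of it, and the message is degraded when DNA synthesis stops. Macrophages derived from bone marrow proliferate under colony-stimulating factor and are known to slow their division when toll-like receptors are engaged. The library type, total RNA after ribosomal RNA removal, does not select for poly(A) tails.

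The study sequenced RNA of the nuclear fraction, called nucleoplasmic in the labels, from bone-marrow-derived macrophages of C57BL/6J mice, a wild-type strain. The cells had been given Lipid A, the TLR4-activating part of lipopolysaccharide, at 100 ng/ml for 12 h, kept without it for 12 h and given 100 ng/ml again for 10 min. The 2 libraries, replicates 1 and 2, form a single group, so no condition can be compared and no test was made. Starting nucleic acid was 1 µg for replicate 1 but 500 ng for replicate 2. Both carry 1 donor identifier, and the labels do not say whether these were separate cultures or animals, so the spread between them may be technical.

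The depth was 24444219 expected counts over all genes for replicate 1, and 18051097 for replicate 2. All 10 macrophage markers listed (among them Lyz2, Mpeg1, Adgre1 and Csf1r) were detected, with summed TPM (the authors' level per transcript length) of 2686 and 2534. None of 8 neutrophil, 4 B cell, 4 T cell, 4 erythroid and 4 progenitor markers was detected, and no such list summed above 1.26 TPM in either library. Among these, Ly6g, Elane, Cd79a, Cd8a, Hbb-bs and Hba-a1 had 0 counts in both libraries.

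The 3' stem-loop, the element that defines this class of message, could be read in the annotated transcripts. It was found after the stop codon in 46 members, which is 88.5% of the 52 members whose transcript model has a 3' untranslated region. Searched anywhere in a protein-coding transcript, whether or not the model has such a region, it was in 46 of 67 members (68.7%). By that same search it was in 7 of 21799 other protein-coding genes (0.0321%). Among those 7 were H2afx, the DNA-damage variant of H2A, and Trim17, which overlaps Hist3h2a on the same strand. The search used a strict pattern of 16 letters with choices allowed at set places, so a stem-loop outside that pattern would have been missed. Within it, the 8 spellings seen in members differ in the stem pairs and the loop. The commonest, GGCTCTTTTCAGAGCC, was in 26 members of the H1, H2A, H2B and H3 families. The H4 genes carried other spellings, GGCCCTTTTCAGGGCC in 7 and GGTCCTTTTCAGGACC and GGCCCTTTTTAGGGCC in 2 each. Below are the sites of 7 members whose levels are described later, in DNA letters 5' to 3' from the GENCODE M21 transcripts on mm10, with the stem-loop in capitals and up to 5 bases on each side.
Hist2h2aa2 (chr3:96239779.0-96239804.0, minus strand): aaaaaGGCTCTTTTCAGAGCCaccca
Hist3h2a (chr11:58955167.0-58955192.0, plus strand): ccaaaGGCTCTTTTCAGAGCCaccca
Hist2h2ac (chr3:96220413.0-96220438.0, minus strand): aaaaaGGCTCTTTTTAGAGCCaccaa
Hist1h3e (chr13:23561898.0-23561923.0, minus strand): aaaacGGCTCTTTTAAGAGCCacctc
Hist1h4m (chr13:21812124.0-21812147.0, plus strand): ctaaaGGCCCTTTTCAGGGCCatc
Hist1h4i (chr13:22040961.0-22040986.0, minus strand): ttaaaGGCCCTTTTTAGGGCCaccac
Hist1h4b (chr13:23757361.0-23757386.0, plus strand): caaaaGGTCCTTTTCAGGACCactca

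The promoters were examined next, since members vary in level while sharing a class of promoter. RefSeq promoter windows on GRCm38.p6, from 250 bases before to 50 bases after the start, matched 62 members, and 32788 windows of other genes served as background. Searched on both strands and anywhere in the window, the TATA box letters TATAAA were in 56.5% of member windows and 13.5% of the others. The letters CCAAT were in 85.5% of member windows against 37.3%. Every matched promoter of H1 (6), H2A (18), H2B (16) and H3 (10) held CCAAT, while 3 of 12 H4 promoters did. The octamer ATGCAAAT, known from histone H2B promoters as a binding site of OCT1, was in 13 of 62 member windows (20.97%) against 1.70%, all in H2A (7 of 18) and H2B (6 of 16). Windows of H2A and H2B genes that stand head to head, described below, can overlap, so 1 site may be counted for both genes. The octamer shown for Hist2h2ac lies between its start and that of Hist2h2be, 239 bases apart, and nearer to that of Hist2h2be. A match is a description of letters and not evidence of binding. The 3 windows below show an H2A, an H2B and an H4 promoter, with the matched letters in capitals (ATTGG and ATTTGCAT are CCAAT and the octamer on the opposite strand).
Hist2h2ac (chr3:96220831-96221130, minus strand): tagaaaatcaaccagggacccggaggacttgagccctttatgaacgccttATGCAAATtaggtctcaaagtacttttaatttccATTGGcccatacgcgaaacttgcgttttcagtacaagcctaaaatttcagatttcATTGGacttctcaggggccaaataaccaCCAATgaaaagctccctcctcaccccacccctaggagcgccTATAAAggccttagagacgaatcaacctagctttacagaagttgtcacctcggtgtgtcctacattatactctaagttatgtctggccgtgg
Hist1h2bg (chr13:23571150-23571449, plus strand): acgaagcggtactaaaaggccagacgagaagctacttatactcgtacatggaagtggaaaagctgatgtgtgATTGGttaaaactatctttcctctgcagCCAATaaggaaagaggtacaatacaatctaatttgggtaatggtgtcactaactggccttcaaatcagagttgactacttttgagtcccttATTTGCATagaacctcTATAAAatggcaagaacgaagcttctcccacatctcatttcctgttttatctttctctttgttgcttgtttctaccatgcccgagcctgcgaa
Hist1h4i (chr13:22041313-22041612, minus strand): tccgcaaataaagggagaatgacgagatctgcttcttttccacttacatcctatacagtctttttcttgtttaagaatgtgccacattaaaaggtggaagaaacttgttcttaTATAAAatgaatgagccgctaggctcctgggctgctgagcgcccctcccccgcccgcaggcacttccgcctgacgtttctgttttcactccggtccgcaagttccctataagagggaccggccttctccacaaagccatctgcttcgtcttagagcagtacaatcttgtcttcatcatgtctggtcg

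As a class the members were present at low to moderate levels. Detection required 1 TPM or more and 10 or more expected counts in each library. By this rule 44 members (65.7%) were detected, beside 42.9% of all protein-coding genes. Of the detected members, 18 lay above the median of detected protein-coding genes, 7.99 TPM. The median member had 3.07 TPM in replicate 1 and 2.56 TPM in replicate 2. Mean TPM was at least 10 in 15 members, from 1 to 10 in 37 and under 1 in 15. Together the members held 13116 counts in replicate 1, a share of 0.0537% (exact 95% interval 0.0527% to 0.0546%), and 6113 counts in replicate 2, a share of 0.0339% (0.0330% to 0.0347%). The mean share was 0.0438% ± 0.0140 (SD, n = 2), and the intervals, which cover counting error only, do not overlap. Summed TPM was 557 and 351.

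Most members are near-copies of each other, and that limits what a single value means. Of the 31-base stretches in a member's transcripts, a median of 39.8% occurred in no other gene. Hist2h2aa1, Hist2h2aa2, Hist2h2bb, Hist2h3b and Hist2h3c1 had no unique stretch at all, and 14 members had under 10%. Reads of these genes were divided by the authors' quantification, so their values are uncertain beyond counting error. Sums over families are firmer than single genes only where the sharing stays within a family. All stretches of Hist2h2bb and Hist2h3b also occur in Gm20628, those of Hist2h3c1 in Gm20634 and those of Hist2h2aa1 in Gm20633, which are not members. Hist2h3b had a mean of 10.7 TPM, beside 29.3 TPM for all H3 genes summed. The 26 members with at least 50% unique stretches held 74.5% ± 1.71 of member counts (SD, n = 2).

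**Figure D1:**
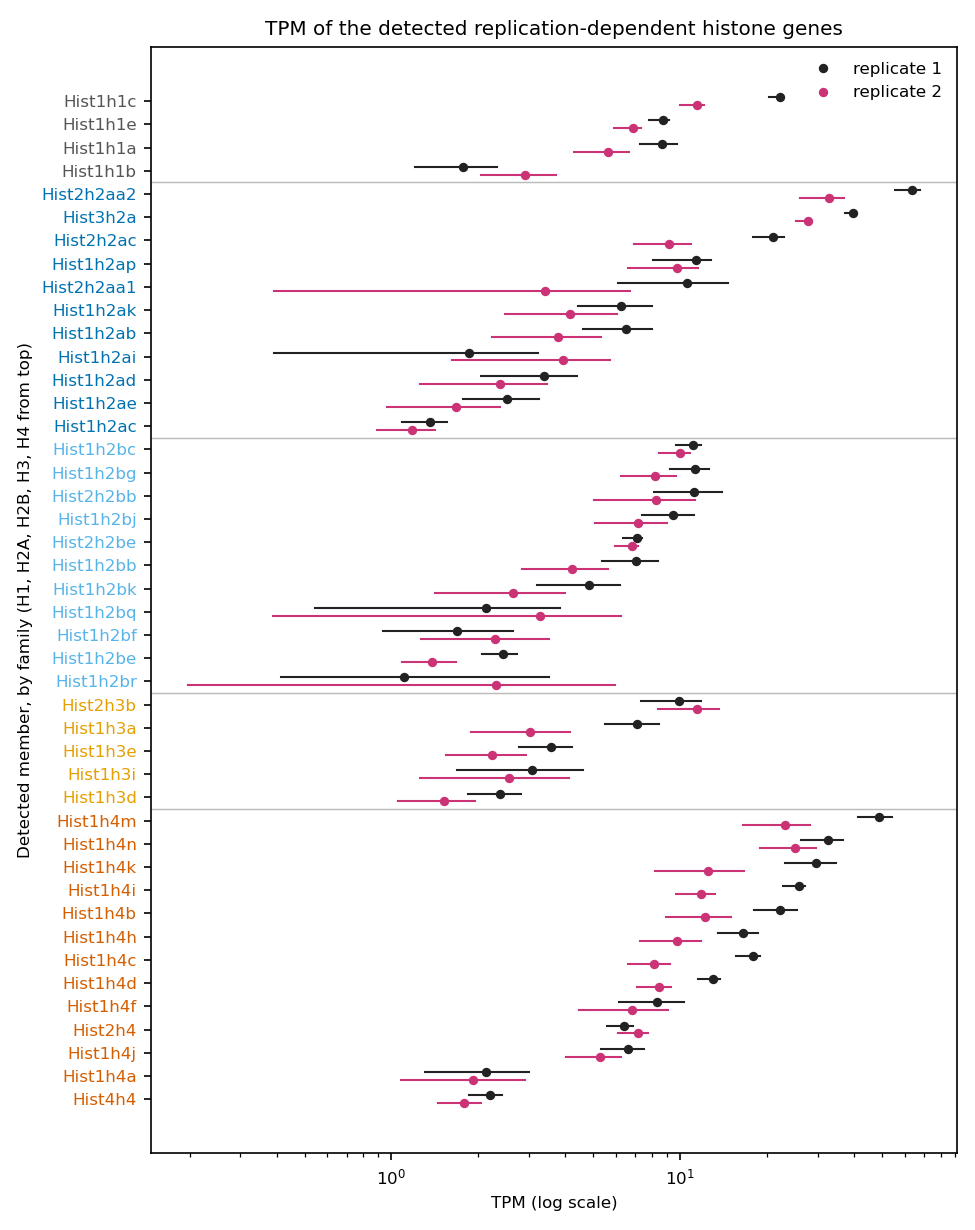
TPM (log scale) of the 44 detected members in each library, grouped by family from H1 at the top to H4 at the bottom; dots are the authors' values and lines their 95% credibility intervals. Hist2h2aa2 is highest, with values of 63.6 for replicate 1 and 32.9 for replicate 2, and most replicate 2 dots lie to the left.

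The linker histones H1 bind DNA between nucleosomes, and 4 of 6 genes were detected. Hist1h1c, which encodes H1.2, had 22.2 TPM in replicate 1 and 11.4 TPM in replicate 2, on 1183 and 425 counts. Hist1h1e, encoding H1.4, had 8.73 and 6.85 TPM. Hist1h1a, encoding H1.1, followed with 8.69 and 5.62 TPM. These 3 have mostly unique sequence (65.3% to 99.7% of stretches), so near-copies bear on them less than on the core histones. Hist1h1d, encoding H1.3, had 544 and 197 counts but 1.90 and 0.99 TPM, on a model of 7425 bases, the longest of all members. Hist1h1b, encoding H1.5, had 1.77 and 2.90 TPM, and Hist1h1t, the testis H1, had 6 and 0 counts. Of the H1 genes averaging 10 or more counts, only Hist1h1b was higher in replicate 2.

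H2A, which pairs with H2B in the nucleosome core, had 11 of 18 genes detected. Hist2h2aa2 (chr3:96239749-96240276, minus strand) had the highest mean of any member in the gene tables, 48.2 ± 21.7 TPM (SD, n = 2), and ranked 647th there among 22028 protein-coding genes. In the other quantification Hist1h4k was highest, at a mean of 16.5 TPM, ahead of Hist2h2aa2 at 15.5. Hist2h2aa2 cannot be told from its copy Hist2h2aa1, listed at 10.6 and 3.41 TPM. The antisense transcript Gm20632 covers all 528 bases of Hist2h2aa2 on the other strand, with 397 and 238 counts. All stretches of Hist2h2aa1 also occur in the antisense transcript Gm20633. How reads were divided between these genes was not tested. Hist3h2a (chr11:58954685-58956830, plus strand) had 39.9 and 27.8 TPM. It alone held 23.8% of all member counts, 3054 in replicate 1 and 1487 in replicate 2. Its annotated transcript runs 2146 bases, of which 1643 follow the stem-loop. Trim17, on the same strand, overlaps it over all 2146 bases with 176 and 115 counts, yet 67.9% of Hist3h2a stretches were unique. Hist2h2ac had 20.9 and 9.15 TPM and Hist1h2ap 11.4 and 9.79 TPM. Hist2h2ab was undetected, with 18 and 4 counts. Hist1h2aa, known from testis, and Hist1h2ao had 0 counts in both libraries. In Hist1h2ao 6.22% of stretches were unique, and the other quantification listed it at 0.836 and 0.270 TPM, so 0 there does not show that it was silent.

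H2B genes were fewer in reads, with 11 of 18 detected. Hist1h2bc had 11.1 and 9.97 TPM, Hist1h2bg 11.3 and 8.17 TPM, and Hist2h2bb 11.2 and 8.23 TPM. Hist1h2bj followed with 9.44 and 7.15 TPM. Hist2h2be, known for a variant H2B in olfactory neurons, had 7.07 and 6.82 TPM on 674 and 454 counts, 97.2% unique. Hist2h2be and Hist1h2bc have a 3' untranslated region without the stem-loop letters. In Hist3 the second gene, Hist3h2ba, had 4 and 5 counts. Hist1h2ba, the testis H2B, had 0 counts in both libraries, which allows up to 3 counts in each.

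H3 gave the fewest reads, 4.29% ± 0.527 of member counts (SD, n = 2), with 5 of 12 genes detected. Hist2h3b, one of 3 Hist2 genes for H3.2, had 9.88 and 11.5 TPM, but every stretch of it occurs in Gm20628, an antisense transcript on the other strand. Hist1h3a had 7.08 and 3.01 TPM and Hist1h3e 3.57 and 2.23 TPM. The other Hist2 genes for H3 were undetected. Hist2h3c2 had 0.79 and 0.62 TPM, and Hist2h3c1 had 0 counts in replicate 1 and 25.6 in replicate 2, with no unique stretch.

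H4, whose genes all encode the same core protein, was detected in 13 of 13 genes and took the largest part of member TPM. Hist1h4m had 48.9 and 23.1 TPM, Hist1h4n 32.5 and 25.0 TPM, and Hist1h4k 29.6 and 12.5 TPM. Those 3 have few unique stretches (8.33% to 13.8%), and the order among them is not secure. Hist1h4i (chr13:22040636-22041362, minus strand), with 64.4% unique, had 25.7 and 11.8 TPM on 522 and 166 counts. Hist1h4c, 77.8% unique, had 17.9 and 8.15 TPM, and Hist1h4d, 85.3% unique, had 13.0 and 8.45 TPM. Hist1h4b had 22.2 and 12.2 TPM, Hist1h4h 16.5 and 9.73 TPM and Hist1h4f 8.30 and 6.80 TPM. Outside the main cluster, Hist2h4 had 6.40 and 7.14 TPM and Hist4h4 2.20 and 1.79 TPM.

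The order of the families depended on whether reads or levels per length were counted. By counts, H2A held 35.8% ± 0.837, H4 24.8% ± 0.894, H1 18.5% ± 1.35, H2B 16.6% ± 2.55 and H3 4.29% ± 0.527 of the member total (SD, n = 2 each). By TPM, H4 held 39.9% ± 2.43, H2A 30.5% ± 1.32, H2B 15.1% ± 2.73, H1 7.87% ± 0.0913 and H3 6.60% ± 0.931. By counts H1 and H2B changed order between the libraries (19.4% and 14.8% in replicate 1, 17.5% and 18.4% in replicate 2), while by TPM the order of the families was the same in both. The 5 highest members took 38.5% of member TPM in replicate 1 and 34.6% in replicate 2. By cluster, Hist1 held 68.5% ± 0.223 of member TPM, Hist2 23.4% ± 0.478, Hist3 7.64% ± 0.618 and Hist4h4 0.453% ± 0.0820.

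**Figure D2:**
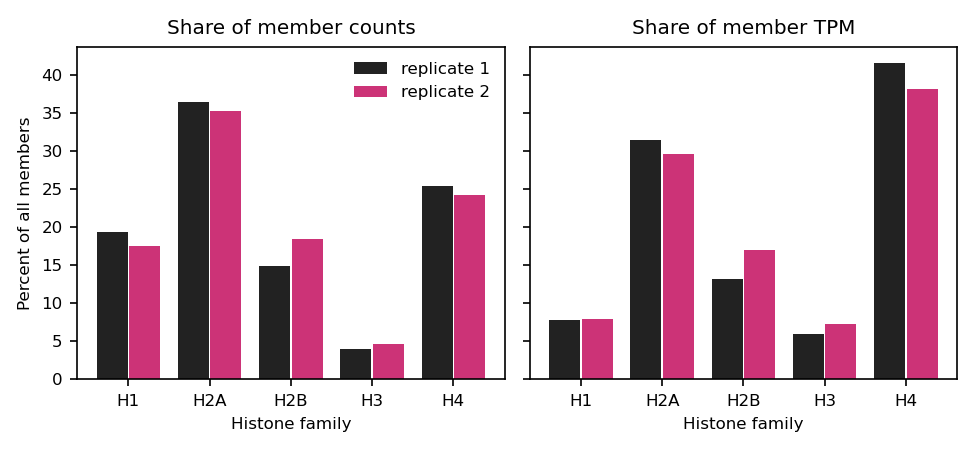
Share of each histone family in all member counts (left) and member TPM (right), in percent, with 1 bar per library. H2A leads by counts (35.8% on average) and H4 by TPM (39.9%).

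Within the Hist1 cluster, 4 blocks are separated by gaps of over 100 kb. Block 1 (18 members, from Hist1h2bl to Hist1h2br) held 28.0% ± 0.317 of member TPM, block 2 (5 members, Hist1h2ah to Hist1h2bj) 7.06% ± 0.719 and block 3 (29 members, Hist1h4h to Hist1h1a) 33.4% ± 0.179 (SD, n = 2 each). Block 4 is the pair Hist1h2ba and Hist1h2aa, both testis genes, at 0. A gap of 169 kb separates it from block 3.

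Many H2A and H2B genes stand head to head and share the bases between their starts. There were 13 such divergent pairs with starts up to 1000 bases apart (176 to 660 bases), 12 of them an H2A with an H2B gene. Both genes were detected in 5. In these 5 pairs mean TPM was within 2-fold in 1 and over 4-fold apart in 3. These gaps in TPM depend on the lengths of the annotated models. Hist1h2ac had 1.36 and 1.18 TPM beside Hist1h2bc at 11.1 and 9.97 TPM, with starts 251 bases apart. Their counts were 122 and 73.8 beside 413 and 259, on models of 2482 and 1156 bases. Hist1h2ap had 11.4 and 9.79 TPM beside Hist1h2br at 1.11 and 2.31 TPM, although the counts of Hist1h2br, 33.9 and 10.4, ran the other way. Unique stretches were 6.64% in Hist1h2ap and 10.5% in Hist1h2br, and the replicate 2 TPM interval of Hist1h2br ran from 0.197 to 5.96. In the Hist2 pair, Hist2h2ac had 20.9 TPM in replicate 1 and 9.15 in replicate 2, whereas Hist2h2be had 7.07 and 6.82 TPM. By counts that order was reversed, with 253 and 75.9 for Hist2h2ac beside 674 and 454 for Hist2h2be. By mean TPM the higher gene was the H2A in some pairs and the H2B in others.

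**Figure D3:**
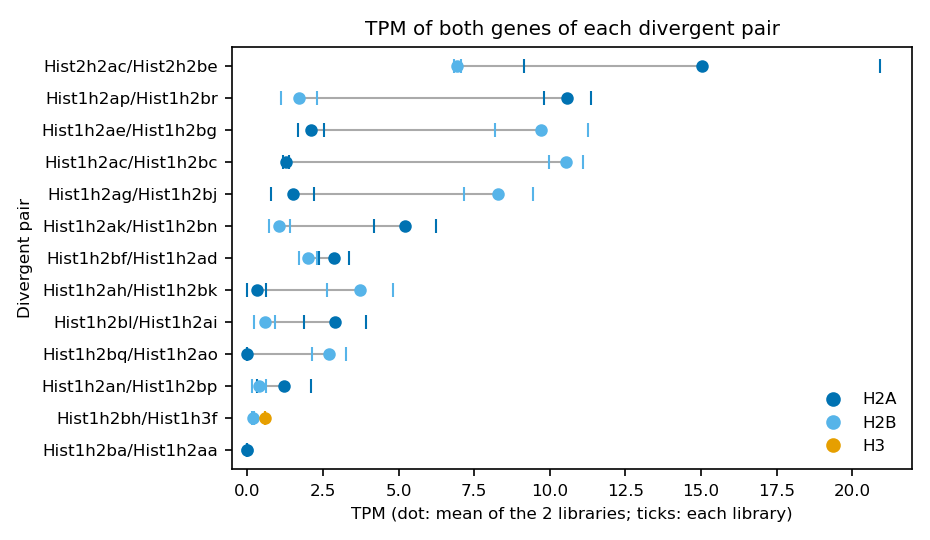
TPM of both genes of each of the 13 divergent pairs, coloured by family; dots are means of the 2 libraries and ticks the single libraries. Hist1h2bc is 8.29-fold above Hist1h2ac, and Hist1h2ap 6.18-fold above Hist1h2br.

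A large part of histone reads, though not of TPM, was assigned to long transcript models. Models over 1000 bases took 61.9% of the members' transcript counts in replicate 1 and 66.6% in replicate 2. The mean was 64.2% ± 3.36 (SD, n = 2), from 23 of 75 transcripts. Counts are not divided by length. By gene, the 16 members over 1000 bases held 63.5% ± 3.45 of member counts but 23.2% ± 2.38 of member TPM (SD, n = 2). In 42 members, which held 79.7% ± 2.46 of member counts, the annotated transcript continues past the stem-loop by more than 20 bases. Hist1h1c continues for 840 bases, Hist1h4d for 770 and Hist1h4i for 330. In 3 members (Hist1h4m, Hist1h2ap and Hist1h2ab) the model ends at the stem-loop, in 15 it has no 3' untranslated region and in 7 the region of the longest coding model lacks the stem-loop letters. One of these 7, Hist1h2bp, has the letters in a shorter model and is among the 46 above. The tables give no position along a transcript, so whether reads lay before or after the stem-loop was not measured. In 62 members all annotated transcripts have a single exon, so intron retention cannot be read from them.

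Between the libraries the members were lower in replicate 2 as a class. The log2 ratio of TMM-normalised counts, replicate 2 over replicate 1, had a median of -0.85 over the 53 members averaging 10 or more counts, beside 0.01 over all protein-coding genes at that count. It was below 0 in 49 members and above 0 in 4. More than 2-fold lower were 20 of the 53 (37.7%), beside 5.39% of all genes at that count. More than 2-fold higher was 1 of the 53, Hist2h3c1, beside 3.07% of all genes. With 1 library on each side, these are descriptions of a pair of libraries and carry no p-value. In the same libraries the genes of DNA replication and S phase had a median ratio of 0.04 (-0.05 in the other quantification) and those of G2 and mitosis 0.79 (0.42). In bulk RNA, fewer cells with a message and less of it per cell cannot be told apart. The starting quantity differed between the libraries and cannot be told apart from the replicate.

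**Figure D4:**
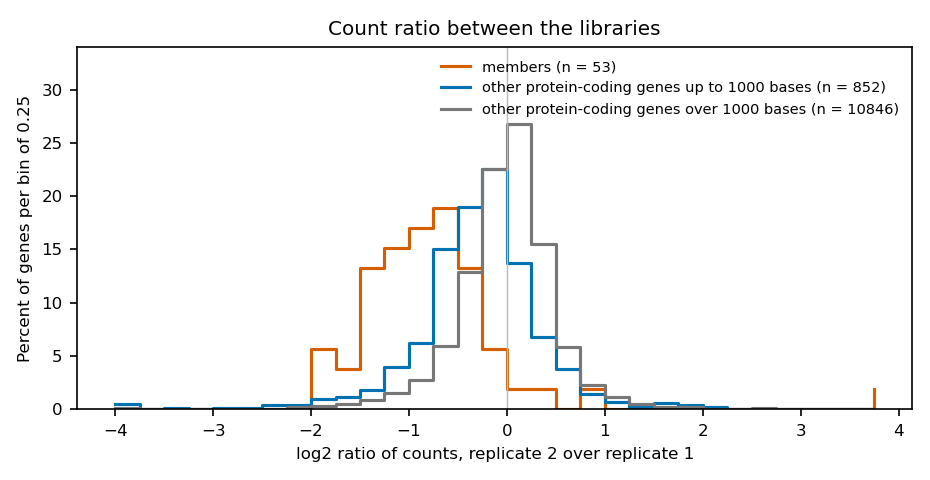
Distribution of the log2 count ratio, replicate 2 over replicate 1, in bins of 0.25, for members, other protein-coding genes up to 1000 bases and other protein-coding genes over 1000 bases, all averaging 10 or more counts; values past 4 either way are in the end bins. The members centre at -0.85, the short genes at -0.24 and the long genes at 0.02.

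Among the 33 members averaging 50 or more counts, none was higher in replicate 2 and 13 were more than 2-fold lower. The matching shares of all genes at that count were not computed, so these numbers of members have no background to be read against. Of these 13, Hist1h4i, Hist1h4c, Hist1h4h, Hist1h1c, Hist1h1d and Hist1h2be have at least 50% unique stretches. Hist1h4c had 428 and 135 counts, a log2 ratio of -1.39 (exact 95% counting interval -1.68 to -1.11). Hist1h4i was at -1.38 (-1.64 to -1.12). Hist1h1c stood at -1.20 (-1.37 to -1.04) and Hist1h1d at -1.19 (-1.43 to -0.95). Hist1h2be had 207 and 79.7 counts, a ratio of -1.09 (-1.49 to -0.72), and its annotated span overlaps Hist1h1e on the same strand over 496 bases. Hist1h4h was at -1.03 (-1.47 to -0.62).

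The other 7 of the 13 have shared sequence. Hist2h2aa1 was at -1.87 and Hist2h2aa2 at -1.22, Hist1h4k at -1.59, Hist1h3a at -1.48, Hist2h2ac at -1.46, Hist1h4m at -1.37 and Hist1h4b at -1.14. The authors' TPM credibility intervals, which carry the uncertainty of read assignment, lay wholly below in replicate 2 for 16 of the 53 members, beside 7.69% of all genes, and wholly above for 0, beside 26.1% of all genes. Those TPM values are on a scale on which the median protein-coding gene was 0.24 (log2) higher in replicate 2. By ratios of TPM, 11 of the 53 members were more than 2-fold lower and 3 higher, with a median of -0.52. Once centred on protein-coding genes, 19 were more than 2-fold lower and 1 higher, with a median of -0.76.

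Other well-measured members had ratios nearer to 0. Hist2h4 (359 and 279 counts) was at -0.09 (-0.32 to 0.14), and Hist2h2be (674 and 454 counts) at -0.30 (-0.47 to -0.12). Hist1h2bc was at -0.40 (-0.63 to -0.17) and Hist4h4 at -0.54 (-0.86 to -0.23). Hist3h2a, at -0.76 (-0.85 to -0.67), lay near the median of the members. Of these 5 intervals only that of Hist2h4 holds 0. The interval of Hist2h4 does not overlap those of Hist1h4c or Hist1h4i, though all encode H4. By family the medians were -0.88 for H1 (5 genes), -0.87 for H2A (13), -0.69 for H2B (12), -0.72 for H3 (10) and -0.87 for H4 (13). The 6 members with a 3' untranslated region but no stem-loop letters had a median of -0.38, and 1 of them was more than 2-fold lower. The 36 that continue past the stem-loop had a median of -0.87, with 14 more than 2-fold lower. In the other quantification these 2 medians were -0.57 and -0.89. The 3 that end at the stem-loop had a median of -1.06 (-1.37 in the other quantification). The 8 without a 3' untranslated region had -0.78 (-0.27 in the other quantification). This grouping was looked at after the values were known and was not tested. It rests on the annotated models. In Hist2h3b the region is 37 bases, while in Hist2h3c1 and Hist2h3c2 the 16-letter stem-loop begins 30 bases after the stop codon. The Hist2h3b model may thus end before a stem-loop. Of the 6, Hist1h2bq, Hist1h2br and Hist2h3b had 1.74%, 10.5% and 0% unique stretches.

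Short transcripts as a group were also lower in replicate 2. Other protein-coding genes up to 1000 bases had a median ratio of -0.24 (852 genes, 9.39% more than 2-fold lower), and those of 300 to 600 bases -0.39 (123 genes, 10.6%). Members up to 1000 bases had a median of -0.91 (38 genes, 17 more than 2-fold lower) and those of 300 to 600 bases -0.97 (27 genes, 13 more than 2-fold lower). Members over 1000 bases had -0.55 (15 genes, 3 more than 2-fold lower), beside 0.02 for other protein-coding genes of that length. Transcript length minus effective length, the offset the authors' quantification used, was 216 bases in replicate 1 and 221 in replicate 2. The part of length in the ratio of the members was not tested.

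**Figure D5:**
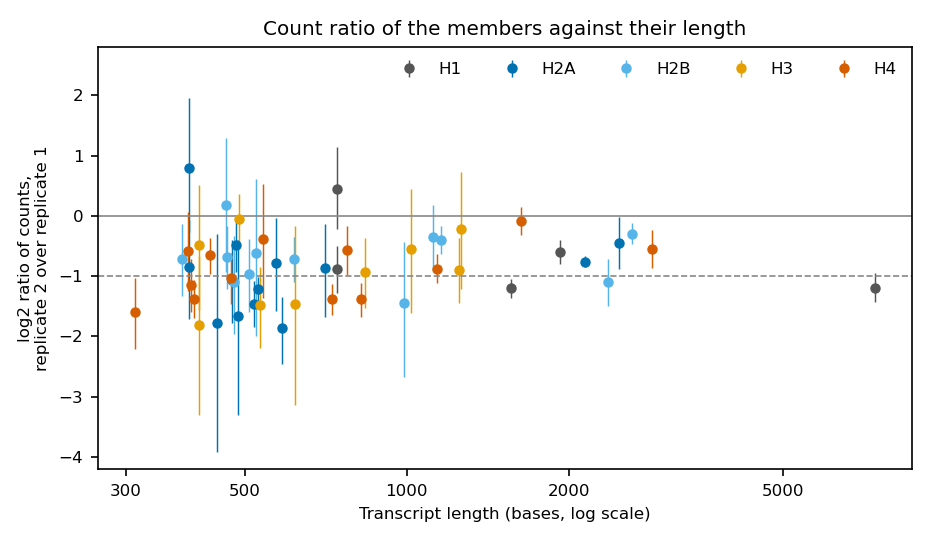
Log2 count ratio, replicate 2 over replicate 1, of 52 members averaging 10 or more counts against transcript length (log scale), coloured by family, with exact 95% counting intervals; Hist2h3c1, at 0 in replicate 1, is not drawn. The solid line marks equal counts and the dashed line 2-fold lower; members over 1000 bases have a median of -0.55 and shorter ones -0.91.

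The 2 deposited quantifications were compared over the members. Across the 67 genes, which share both libraries and so are not independent, Spearman's rho was 0.97 for mean TPM between the tables and 0.94 between replicates. The other quantification gave 15409 and 9148 member counts, 0.0470% and 0.0301% of its gene totals, and a median ratio of -0.88. Its member TPM summed to 223 and 176, lower than in the gene tables. Of the detected members Hist1h4k differed most between the tables, with 304 and 122 counts in the other quantification beside 121 and 33.4 in the gene tables. Hist2h3c1 had 0 counts in both libraries of the other quantification, so its count in replicate 2 rests on the gene table alone.

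Replacement histones, of which many are made throughout the cell cycle, mostly from genes with introns and poly(A) tails, were set beside the members. Of 11 genes listed, 9 were detected, with TPM summing to 314 and 289 against 557 and 351 for the 67 members. H3f3b, which encodes H3.3, had 188 and 176 TPM, above every member. H2afy, encoding macroH2A1, had 41.3 and 42.7 TPM and H3f3a, the other H3.3 gene, 30.7 and 20.97 TPM. H1f0 had 17.5 and 12.0 TPM, H2afj 16.2 and 12.9 TPM, and H2afz, encoding H2A.Z, 15.2 and 13.8 TPM. H2afx had 1.53 and 1.58 TPM and H2afv 1.85 and 4.01 TPM. Their median count ratio was -0.25 over 10 genes, none was more than 2-fold lower, and 1 was more than 2-fold higher, Cenpa, the centromeric H3, with 103 and 273 counts (1.68).

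The machinery that makes and trims histone messages was largely present. Of 19 genes for histone transcription and 3' end processing, 16 were detected, with a median ratio of -0.11, 1 more than 2-fold lower and 1 higher. Srrt (ARS2) had 39.8 and 60.2 TPM, Sympk (symplekin) 17.4 and 16.0 TPM, Cpsf3, the cleavage nuclease CPSF73, 9.13 and 15.7 TPM, and Snrpe 9.15 and 8.90 TPM. Slbp had 8.59 and 8.17 TPM and Npat 2.12 and 2.72 TPM, both named here for their roles after their values were seen. Undetected were Lsm11, a U7 snRNP protein (0.38 and 0.40 TPM), Zfp473 (10 and 27 counts, the gene past 2-fold higher) and Snrpf (28.7 and 6.06 counts, the one past 2-fold lower). Neither was past 2-fold in the other quantification, at 0.11 for Zfp473 and -0.61 for Snrpf. All 8 histone mRNA decay genes were detected, with a median ratio of 0.04 and none past 2-fold. The 4 highest were the terminal uridylyltransferase Tut7 (57.2 and 54.3 TPM), the exonuclease Xrn1 (20.3 and 22.8 TPM), Tut4 (15.3 and 24.4 TPM) and the helicase Upf1 (12.3 and 11.5 TPM). Of 14 histone chaperone genes, 13 were detected and 1, Daxx, an H3.3 chaperone, was more than 2-fold lower (7812 and 3112 counts, -1.05). Atrx, its partner, had 54.7 and 80.6 TPM, Ubn1 15.1 and 19.5 TPM and Ssrp1 12.5 and 16.0 TPM, while Asf1b was undetected (25 and 18 counts).

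Genes of DNA replication and division give the setting in which histone genes are usually read. Of 26 genes for DNA replication and S phase, 17 were detected, at a median of 1.75 TPM, with a median ratio of 0.04 and none past 2-fold. Pcna, the sliding clamp, had 20.3 and 23.1 TPM, thymidine kinase Tk1 8.89 and 6.25 TPM, Mcm6 6.44 and 5.62 TPM and Cdt1 5.46 and 4.83 TPM. Ccne2, Ccne1, Uhrf1 and Tyms were among the undetected, at mean levels of 0.95 to 1.14 TPM. Of 15 genes for G2 and mitosis, 4 were detected, and 13 with enough counts had a median ratio of 0.79. Mki67 had 2.67 and 3.68 TPM, Top2a 2.09 and 3.19 TPM and Cdk1 1.12 and 1.99 TPM. Aurkb, at 0.91 and 2.18 TPM, was undetected, and the remaining detected gene was Cenpe at 1.03 and 1.35 TPM. All 13 ratios of that list were above 0 in the gene tables, 3 of them past 2-fold (Kif11 with 62 and 124 counts, Bub1 with 32 and 62 and Plk1 with 18 and 36). The other quantification gave that list a median of 0.42, with Cdk1 at -0.21 and Aurka at -0.08, and of the 3 genes past 2-fold only Bub1 (1.06) stayed there, with Kif11 at 0.78 and Plk1 at 0.73. No test of the difference between that list and the histone members was made.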

How the data were processed

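Total RNA after ribosomal RNA removal, from the nuclear fraction, was sequenced in 2 libraries of 1 group. Per the file headers, the deposited gene and transcript tables give an expected count, a TPM, an SD of the count over read assignment and 95% credibility intervals of TPM, on mm10 with GENCODE M21. A second deposited transcript table holds estimated counts and TPM of the authors' other quantification, summed here per gene. Strandedness, aligner and quantifiers, not given in the sources used here, could change how near-copies share reads. Entries naming no gene (26345) held 1.06% of counts in replicate 1 and 0.245% in replicate 2 and were left out.

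Levels are the authors' TPM. For ratios, expected counts were rounded, TMM factors (edgeR 4.0.16 in R 4.3.3; 0.945 and 1.06) came from genes averaging 10 or more counts, with 0.5 added in a ratio. The DESeq2 1.42.0 size factors were an alternative. Intervals (scipy 1.17.1, exact binomial) cover counting error only, and reads are not independent molecules. No hypothesis test was made.

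All members could be named. Values per library were given for the 20 highest, the 3 highest of each family, Hist2 to Hist4 genes and members past 2-fold averaging 50 or more counts, and, in other lists, for detected replacement histones or the 4 highest, up to 4 undetected and up to 4 past 2-fold. Members and lists were chosen with earlier results of these data known. Alternatives covered the quantification, scaling, thresholds, pseudocounts and single libraries.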

Additional observations from a re-analysis of the deposited data

Results flagged for a closer look

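Counts above the floor of 3 were found at histone loci that the choice of members leaves out, by symbol or because they have no protein-coding transcript. Gm20634, a processed transcript that overlaps Hist2h2aa1 and Hist2h3c1 on the same strand, had 523 expected counts in replicate 1 and 345 in replicate 2. Gm20628, an antisense transcript across Hist2h2bb and Hist2h3b, had 352 and 188 counts. Gm20633, antisense to Hist2h2aa1, had 229 and 192 counts, and Gm20632, antisense to Hist2h2aa2 and named above, had 397 and 238. The histone pseudogene Hist3h2bb-ps had 14 counts in replicate 1 and 6 in replicate 2. All stretches of Hist2h2aa1, Hist2h2bb, Hist2h3b and Hist2h3c1 occur in these transcripts, and how reads were divided between them was not tested.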

How the results depend on the processing

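No paired analysis was possible because both libraries belong to 1 group. The direction of the median ratio was negative under every alternative, at -0.69 with total counts only, -0.52 with TPM, -0.76 with TPM centred on protein-coding genes, -0.77 with no filter on low counts and -0.76 with 5 added to counts. Chosen after seeing the data, it was -0.91 for members up to 1000 bases and -0.55 over 1000 bases. The 20 of 53 members more than 2-fold lower became 11 of 53 with TPM and 19 of 53 with TPM centred on protein-coding genes. They became 13 of 33 at a mean count of at least 50, 6 of 21 with at least 50% unique stretches and 3 of 15 over 1000 bases. The 1 higher became 3 with TPM, 4 with no filter and 0 with the other quantification, at a mean count of at least 50, and, chosen after seeing the data, for members with at least 50% unique stretches, without a same-strand overlap or up to 1000 bases. Of the 33 members whose ratios were recomputed, 2 changed sign under any setting and none past 2-fold did.

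The 44 detected members became 20 of 26 with at least 50% unique stretches. The share of counts was 0.0580% of a total without the 10 highest genes, and 0.0339% to 0.0537% without a replicate. The median log2(TPM + 1) of 1.93 became 1.29 in the other quantification, 1.54 with a pseudocount of 0.1 and 2.63 for members averaging 10 or more counts. Family shares by TPM, in place of counts, are 7.87% for H1, 30.5% for H2A, 6.60% for H3 and 39.9% for H4, and cluster shares 68.5% for Hist1, 23.4% for Hist2, 7.64% for Hist3 and 0.453% for Hist4. By counts, the other quantification gave 34.8% for H2A, 22.5% for Hist3 and 2.37% for Hist4, beside 35.8%, 23.9% and 1.95% by counts in the gene tables. Transcripts over 800 bases held 67.7% of the members' transcript counts. Why values moved was not tested for any setting.

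Depth limits the 13 members with under 10 counts in both libraries, for which no ratio is given.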
